A study of Mus musculus with 6 samples.

Results

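The 7 genes Srebf1, Srebf2, Scap, Insig1, Insig2, Mylip and Stard4, which set the activity of the sterol regulatory element-binding proteins (SREBPs) and the life of the LDL receptor, were followed in livers of mice fed squalene. They were found as all non-control array probes whose accession belongs in RefSeq to 1 of these symbols, which gave 11 probes of the 55681 on the array, and 7 genes of the 20284 with a symbol. Srebf1, Scap and Insig1 had 1 probe each, and Srebf2, Insig2, Mylip and Stard4 had 2 each. All 11 probes were well above background in 4 of 4 pool pairs in both diets, so all were tested.

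The squalene mice were male, Apoe-deficient on C57BL/6J, and ate for 11 weeks a purified Western diet with 0.15% cholesterol, 20% refined palm oil and 1% squalene, a dose of 1 g/kg. The Western mice were of the same sex and genotype and ate that diet without squalene, so both groups lacked apolipoprotein E and both took in cholesterol. Liver RNA of 10 squalene and 9 Western mice was combined into 4 pools per diet, each from 2 or 3 animals, and 200 ng was labelled for Agilent 2-colour arrays. Each array carried 1 squalene and 1 Western pool: pair 1 set pool 5 against pool 1, pair 2 pool 6 against pool 2, pair 3 pool 7 against pool 3, and pair 4 pool 8 against pool 4. The squalene pool was in Cy5 in pairs 1 and 4 and in Cy3 in pairs 2 and 3, and pairs 1 and 2 were each hybridised on 2 arrays, averaged here, so that n = 4 pool pairs.

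SREBPs are made as precursors in the membrane of the endoplasmic reticulum, where they are bound to the escort protein SCAP. When membrane cholesterol is low, SCAP takes them to the Golgi, where the proteases S1P and S2P release the part that enters the nucleus; when sterols are plentiful, the INSIG proteins hold SCAP back. In liver, SREBP-1c, a product of Srebf1, mainly drives fatty acid synthesis, and SREBP-2, the product of Srebf2, mainly drives cholesterol synthesis and the LDL receptor. Mylip, also called IDOL, is a ubiquitin ligase that sends the LDL receptor to the lysosome and is induced by the oxysterol receptor LXR, and Stard4 is a soluble carrier of cholesterol whose gene is a target of SREBP-2. Squalene is itself an intermediate of cholesterol synthesis, made by the enzyme encoded by Fdft1 and oxidised by the one encoded by Sqle.

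Promoters of 4 of these genes are shown, those of both SREBP genes and of both INSIG genes, because the INSIG proteins hold back what the SREBP genes encode. They are the 250 bases before an annotated start in RefSeq (build GRCm38.p6), at chr15:82147019-82147268 (+ strand) for Srebf2, chr5:28071162-28071411 (+ strand) for Insig1, chr11:60210472-60210721 (− strand) for Srebf1 and chr1:121332590-121332839 (− strand) for Insig2, each read 5′ to 3′ on the gene's strand. Capitals mark the letters TCACNCCA (a sterol response element core), CCAAT (the NF-Y box), GGGCGG (the Sp1 box) and CACGTG (a palindromic E-box) on either strand.
Srebf2: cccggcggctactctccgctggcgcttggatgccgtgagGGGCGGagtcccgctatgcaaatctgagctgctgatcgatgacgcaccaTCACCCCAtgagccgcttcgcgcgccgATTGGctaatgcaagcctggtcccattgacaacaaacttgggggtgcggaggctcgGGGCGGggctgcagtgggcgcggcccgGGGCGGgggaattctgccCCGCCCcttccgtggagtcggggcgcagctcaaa
Insig1: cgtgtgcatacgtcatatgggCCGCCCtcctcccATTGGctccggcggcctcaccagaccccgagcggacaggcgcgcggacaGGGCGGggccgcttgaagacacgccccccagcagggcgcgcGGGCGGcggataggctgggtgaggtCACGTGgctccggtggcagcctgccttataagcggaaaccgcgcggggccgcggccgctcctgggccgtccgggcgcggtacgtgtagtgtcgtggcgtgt
Srebf1: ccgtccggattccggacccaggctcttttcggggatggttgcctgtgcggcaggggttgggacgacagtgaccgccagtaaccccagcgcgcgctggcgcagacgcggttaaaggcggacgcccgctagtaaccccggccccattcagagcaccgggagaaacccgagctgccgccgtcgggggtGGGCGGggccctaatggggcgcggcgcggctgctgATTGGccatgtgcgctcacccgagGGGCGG
Insig2: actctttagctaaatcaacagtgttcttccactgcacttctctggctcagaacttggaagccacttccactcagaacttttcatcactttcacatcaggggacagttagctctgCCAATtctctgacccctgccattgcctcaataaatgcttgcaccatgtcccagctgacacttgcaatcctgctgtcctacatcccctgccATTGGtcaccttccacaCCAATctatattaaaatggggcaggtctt

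The Srebf2 window holds TCACNCCA a little upstream of a CCAAT box, whereas the other 10 windows of the members do not hold it. Of 32841 RefSeq windows of the same length, 3.68% hold TCACNCCA, 33.9% CCAAT, 32.7% GGGCGG and 6.02% CACGTG. The 11 windows of Srebf1, Srebf2, Scap, Insig1, Insig2 and Mylip hold them in 1, 6, 8 and 2 cases, in that order. The longer form TCACNCCAC, which stands in 1.05% of all windows, is in none of the 11. Srebf1 and Insig2 have 3 annotated starts each, of which 1 is shown, and the arrays do not tell which was used. The Insig2 window shown is the only one of its 3 with CCAAT, and the others hold GGGCGG. The Srebf1 window shown is the only one of its 3 with both CCAAT and GGGCGG. The windows shown are thus not typical of these 2 genes. These motifs were picked with the windows in view, and a match describes letters and not a bound site.

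None of the 11 probes differed between diets in limma's fit over 26854 probes with Benjamini-Hochberg adjustment (adjusted p = 0.99992 for each, n = 4 pool pairs), and 0 of all probes did, which is 0% (smallest adjusted p 0.168). At an unadjusted p under 0.05 stood 3 member probes, 1 of Srebf2, 1 of Mylip and 1 of Stard4, against 2.45% of all probes (657). Mean ratios were above 0 for 6 of the 11 and below 0 for 5, against 52.8% above 0 over all probes. The ratio had 1 sign in all 4 pairs for 3 probes, both of Mylip and 1 of Stard4, against 6.68% of all. For each of the 11 probes the levels of the squalene pools and of the Western pools overlapped.

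**Figure D1:**
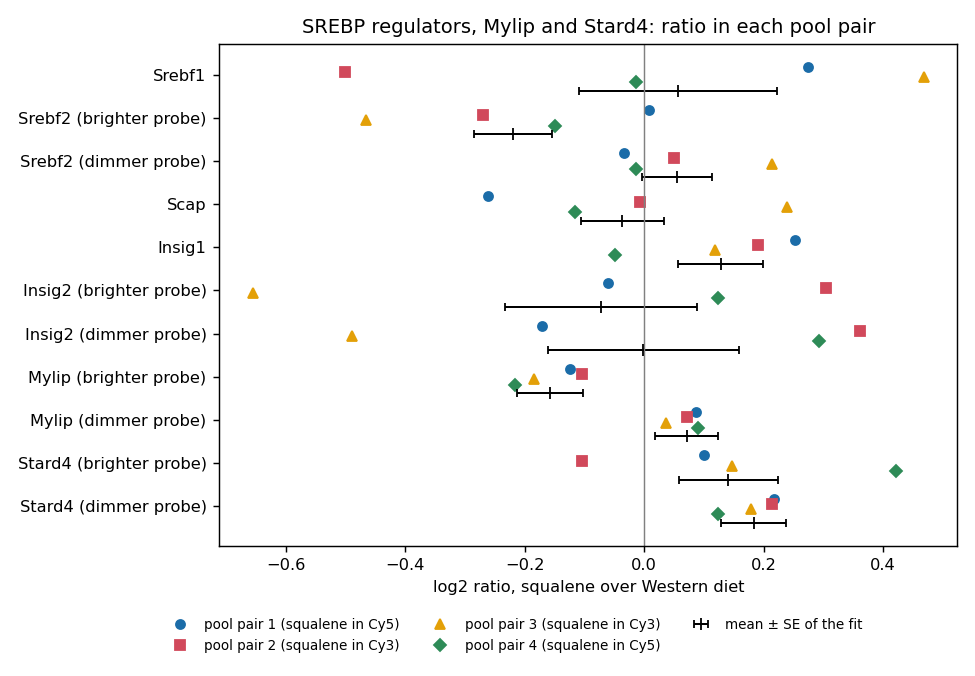
Log2 ratio of squalene over Western diet (x axis) for each of the 11 probes (rows), with 1 symbol per pool pair and the mean ± SE of limma's fit as a black bar below (n = 4 pairs). Srebf1 and both Insig2 probes spread widest, the 2 Mylip probes lie on opposite sides of 0, and the dimmer Stard4 probe lies between 0.12 and 0.22 in each pair.

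Srebf1 encodes SREBP-1a and SREBP-1c, and its single probe is annotated to 1 transcript of the gene. Whether the probe reads both forms was not tested. Its log2 level, the array intensity after normalisation, was 9.29, 9.48, 9.69 and 9.30 in squalene pools 5 to 8, against 9.01, 9.98, 9.22 and 9.31 in Western pools 1 to 4. The highest and the lowest of the 8 values were both Western pools, 2 and 1, and the squalene pools lay between them. The log2 ratio of squalene over Western was 0.27 in pair 1, -0.50 in pair 2, 0.47 in pair 3 and -0.01 in pair 4. The mean was 0.06 ± 0.17 (SE, n = 4 pairs), with a 95% interval from 0.776-fold to 1.39-fold. The SD between pairs, 0.42, exceeded that of 93.7% of all kept probes, where the median was 0.158. The repeat arrays gave 0.29 and 0.26 in pair 1 and -0.49 and -0.51 in pair 2, so arrays of the same pools in the same dyes were close. Pairs 3 and 4 had no repeat. Pairs 2 and 3, which share the dye of the squalene pool, had -0.50 and 0.47.

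Srebf2 encodes SREBP-2. Its brighter probe had log2 levels of 7.60, 7.43, 7.43 and 7.76 in squalene pools 5 to 8, against 7.59, 7.70, 7.89 and 7.91 in Western pools 1 to 4. Squalene pools 6, 7 and 8 were below their Western partners, and pool 5 was level with its own. The mean log2 ratio was -0.22 ± 0.07 (SE, n = 4 pairs), 0.859-fold, with 0.01, -0.27, -0.47 and -0.15 in pairs 1 to 4 (unadjusted p = 0.0191 in limma, adjusted p = 0.99992). The dimmer probe of the same transcript had a mean log2 ratio of 0.05 ± 0.06, with -0.03, 0.05, 0.21 and -0.01 in pairs 1 to 4. The 2 probes thus had the same sign in 1 of 4 pairs and differed by -0.27 ± 0.31 (SD), brighter minus dimmer (exact two-sided sign-flip test, p = 0.25, where 0.125 is the smallest 4 pairs can give). Averaged over both probes, the log2 ratio of Srebf2 was -0.08.

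The brighter Srebf2 probe was lowest in pairs 2 and 3, and so were 4 of the 5 marker lists of other cells. The dimmer Srebf2 probe was instead highest in these pairs, with 0.05 and 0.21. With dye means removed, the difference of the brighter probe was -0.14, -0.12, -0.32 and -0.30 in pairs 1 to 4. On that scale it was lowest in pairs 3 and 4. In pairs 1 to 4 the median log2 ratio of 6 fibroblast markers was 0.21, -0.86, -0.84 and 0.13, that of 6 markers of lipid-associated macrophages 0.17, -0.61, -0.78 and -0.12, and that of 5 red cell markers 0.00, -0.63, -1.64 and 0.15. The median of 5 endothelial markers was 0.20, -0.11, -0.27 and 0.12, and that of 7 Kupffer cell markers 0.25, 0.46, -0.54 and -0.61, highest in pair 2. At an unadjusted p under 0.05 in limma stood 5 of the 6 fibroblast and 4 of the 6 macrophage markers. So did 3 of the 5 red cell markers. Their mean ratios were below 0, and 1.28% of all probes were lower at that p. Of the Kupffer and endothelial markers 0 of 7 and 0 of 5 stood there, and none passed the adjustment. The model's dye term takes up the difference between pairs 1 and 4 and pairs 2 and 3. These p-values therefore leave that spread out. The fibroblast marker Lum, for example, had 0.06, -0.84, -0.74 and 0.12 in pairs 1 to 4 (SD 0.51, SE 0.055). The fibroblast markers' mean log2 level ran from 10.29 to 11.20 in the squalene pools and from 10.73 to 11.51 in the Western pools, and none of their genes was removed as dim. Hepatocyte markers, the defining genes of the tissue, had mean log2 levels of 15.82 to 16.07 in the squalene pools and 15.79 to 16.04 in the Western pools. The median log2 ratio of these 8 markers was 0.16, -0.28, 0.10 and 0.27 in pairs 1 to 4. Alb, Ttr, Fgb and Serpina1c were below 0 in pairs 2 and 3 and above 0 in pairs 1 and 4. Cps1, Hpd, Apoa1 and Tat were above 0 in pair 3. Low values in pairs 2 and 3 were thus not limited to markers of other cells. Pairs 2 and 3 also share the dye of the squalene pool, so those pools and the dye cannot be told apart. In pooled whole liver, fewer cells of a type and less RNA per cell cannot be told apart either, and the part of any of these in the Srebf2 value was not tested.

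Scap, the escort of both SREBPs, had log2 levels of 12.67, 12.80, 12.79 and 12.88 in squalene pools 5 to 8, against 12.93, 12.81, 12.55 and 13.00 in Western pools 1 to 4. The squalene pools lay within the range of the Western ones. Its mean log2 ratio was -0.04 ± 0.07 (SE, n = 4 pairs; 95% interval -0.21 to 0.14), with -0.26, -0.01, 0.24 and -0.12 in pairs 1 to 4.

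Insig1, the INSIG whose gene is itself induced by SREBPs, had log2 levels of 8.73, 9.22, 8.87 and 8.68 in squalene pools 5 to 8, against 8.48, 9.03, 8.75 and 8.73 in Western pools 1 to 4. Both pools of pair 2 were above the rest. The squalene pool was above its partner in 3 of 4 pairs, by 0.25, 0.19 and 0.12, and below it by -0.05 in pair 4. The mean log2 ratio of 0.13 ± 0.07 (SE) had a 95% interval of -0.05 to 0.31 (unadjusted p = 0.13 in limma).

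Insig2 is the INSIG that in mouse liver is lowered by insulin and is not itself an SREBP target. The brighter of its probes had log2 levels of 12.95, 12.27, 12.29 and 12.74 in squalene pools 5 to 8, against 13.02, 11.97, 12.94 and 12.62 in Western pools 1 to 4. The 8 pools spanned 1.05 log2 units, the widest range of the 11 probes, and again both ends were Western pools. The log2 ratio was -0.06, 0.30, -0.66 and 0.12 in pairs 1 to 4, with a mean of -0.07 ± 0.16 (SE) and a 95% interval from 0.716-fold to 1.26-fold. The dimmer probe, which the files place on another transcript of the gene, had -0.17, 0.36, -0.49 and 0.29 and a mean of 0.00 ± 0.16. The 2 probes had the same sign in 4 of 4 pairs, and over the 8 pools their levels had r = 0.949 (rho = 0.905). Whether each probe reads 1 transcript or both was not tested.

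The 2 probes of Mylip had ratios of opposite sign. The brighter had log2 levels of 9.58, 9.63, 9.39 and 9.82 in squalene pools 5 to 8, against 9.71, 9.74, 9.58 and 10.04 in Western pools 1 to 4. Each squalene pool was below its own partner, although the ranges overlapped. The mean log2 ratio was -0.16 ± 0.06 (SE), 0.897-fold, with -0.12, -0.10, -0.18 and -0.22 in pairs 1 to 4 (unadjusted p = 0.0354 in limma, adjusted p = 0.99992), where 2.98% of all probes were below 0 in all 4 pairs. The dimmer probe had 6.51, 6.58, 6.36 and 6.62 in squalene pools 5 to 8, against 6.42, 6.51, 6.33 and 6.53 in Western pools 1 to 4. Here each squalene pool was above its partner, with a mean log2 ratio of 0.07 ± 0.05 (SE), and 3.7% of all probes were above 0 in all 4 pairs. Brighter minus dimmer was -0.23 ± 0.06 (SD), negative in 4 of 4 pairs (exact two-sided sign-flip test, p = 0.125, the smallest 4 pairs can give). Averaged over both probes the log2 ratio was -0.04, so the array gives no single direction for Mylip.

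Stard4 had the same sign of the mean in both probes. The dimmer had log2 levels of 7.43, 7.81, 7.32 and 7.22 in squalene pools 5 to 8, against 7.22, 7.59, 7.14 and 7.09 in Western pools 1 to 4. Each squalene pool was above its own partner, and the ranges overlapped. The mean log2 ratio was 0.18 ± 0.05 (SE), 1.14-fold, with 0.22, 0.21, 0.18 and 0.12 in pairs 1 to 4 (unadjusted p = 0.0193 in limma, adjusted p = 0.99992). The brighter probe had 10.35, 10.68, 10.24 and 10.48 in squalene pools 5 to 8, against 10.25, 10.79, 10.09 and 10.06 in Western pools 1 to 4, and its mean was 0.14 ± 0.08, with 0.10, -0.10, 0.15 and 0.42 in the pairs. The order of the pairs thus differed between the probes, while over the 8 pools their levels had r = 0.882 (rho = 0.762).

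Of the 3 probes under an unadjusted p of 0.05, none stayed there when array ratios were centred on their median, when the deposited value table was used, or when the variance followed a mean trend with a robust prior. The repeat arrays differed by at most 0.156 in pair 1 and 0.153 in pair 2 for any of the 11 probes, beside mean ratios of -0.22, -0.16 and 0.18 for these 3.

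**Figure D2:**
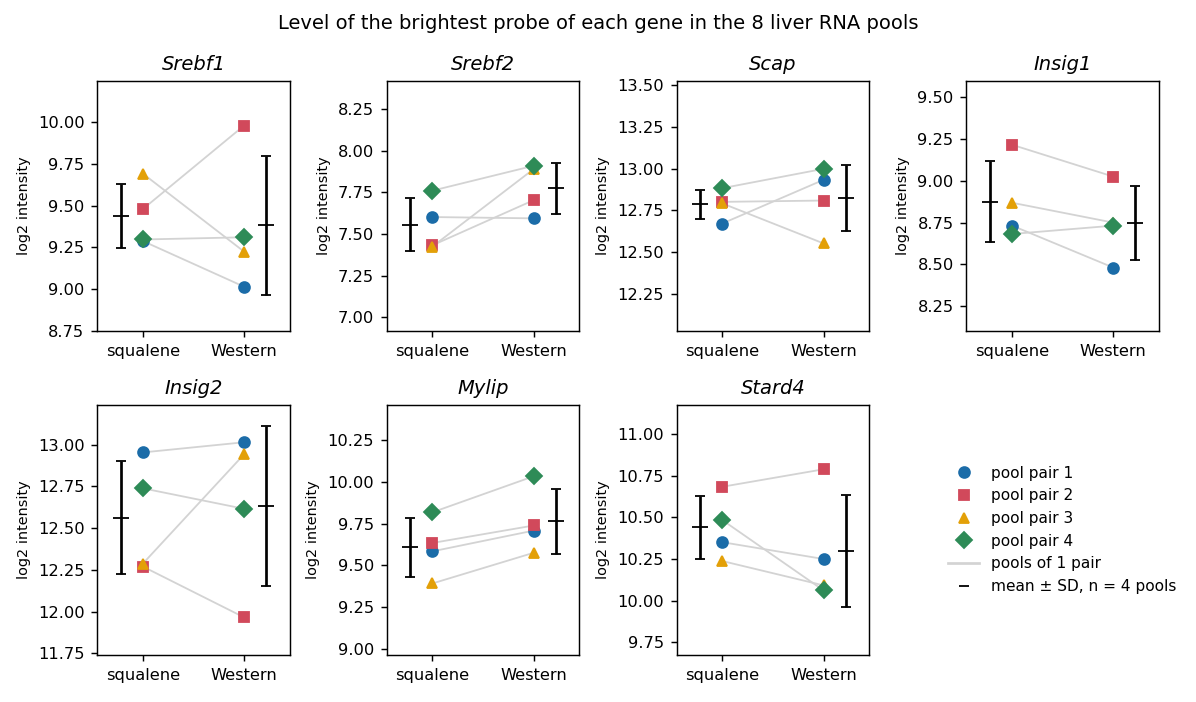
Log2 intensity (y axis, each panel spanning 1.5 log2 units) of the brightest probe of each gene in the squalene pools (left) and Western pools (right), with the 2 pools of a pair joined and the mean ± SD over 4 pools beside each group. The groups overlap in each panel, and the Western pools of Srebf1 and Insig2 spread over more than those of the other genes.

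The 7 genes were then compared with each other over the 8 pools, each dye's mean removed. Pearson's r and Spearman's rho were computed for all 21 pairs of genes with exact two-sided permutation within each dye, which allows 576 arrangements and no p under 0.00174, the smallest they can give. The permutation treats the 8 pools as independent, although the 2 pools of a pair share a hybridisation. Of the 21 relations, 1 passed Benjamini-Hochberg adjustment over the 21. It was that of Scap and Mylip (r = 0.788, exact permutation p = 0.00174, adjusted p = 0.0365, n = 8 pools). Spearman's rho was 0.929 with an adjusted p of 0.0729 (exact permutation), and r was 0.872 without the 2 pools farthest from the median of Scap. With the scanner software's own processed signals r was 0.816 and the adjusted p 0.0547 (exact permutation), so the call rests on the signal used, and with a pool pair left out r ran from 0.706 to 0.870 without passing. The association lay between the pool pairs: the mean of the 2 pools, dye means removed, was 0.00, 0.00, -0.13 and 0.14 for Scap in pairs 1 to 4 and -0.04, 0.00, -0.20 and 0.24 for Mylip. Within pairs, the log2 ratios of squalene over Western were -0.26, -0.01, 0.24 and -0.12 for Scap, against -0.12, -0.10, -0.18 and -0.22 for Mylip. With dye means removed, as in the correlation, the differences were -0.11, -0.16, 0.09 and 0.04 for Scap, against -0.11, -0.12, -0.20 and -0.20 for Mylip. Scap was thus above 0 in pair 3 by the ratios, and in pairs 3 and 4 with dye means removed. Mylip was lowest in pairs 3 and 4 on both scales. Pools that share a pair and arrays that differ in signal cannot be told apart in this relation.

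The largest coefficient was that of Srebf1 and Insig2, which ran opposite to each other (r = -0.969, rho = -0.952), although it missed the threshold (exact permutation p = 0.0104, adjusted p = 0.109, n = 8 pools). Western pool 2 had the highest Srebf1 level, 9.98, and the lowest Insig2 level, 11.97, and Western pool 1 had the lowest Srebf1 level, 9.01, and the highest Insig2 level, 13.02. Without the 2 pools farthest from the median of Srebf1 r was -0.962, and it ran from -0.981 to -0.956 when each pool pair was left out. Within pairs the log2 ratios of Srebf1 and Insig2 had opposite signs in 4 of 4 pairs. With processed signals r was -0.996 and the adjusted p 0.0365 (exact permutation). Insig1 and Insig2 had r = -0.81 (rho = -0.786, adjusted p = 0.109, exact permutation), and -0.903 without 2 pools. Srebf1 and Insig1 had r = 0.731 (rho = 0.714, adjusted p = 0.228, exact permutation), and 0.911 without 2 pools. 

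**Figure D3:**
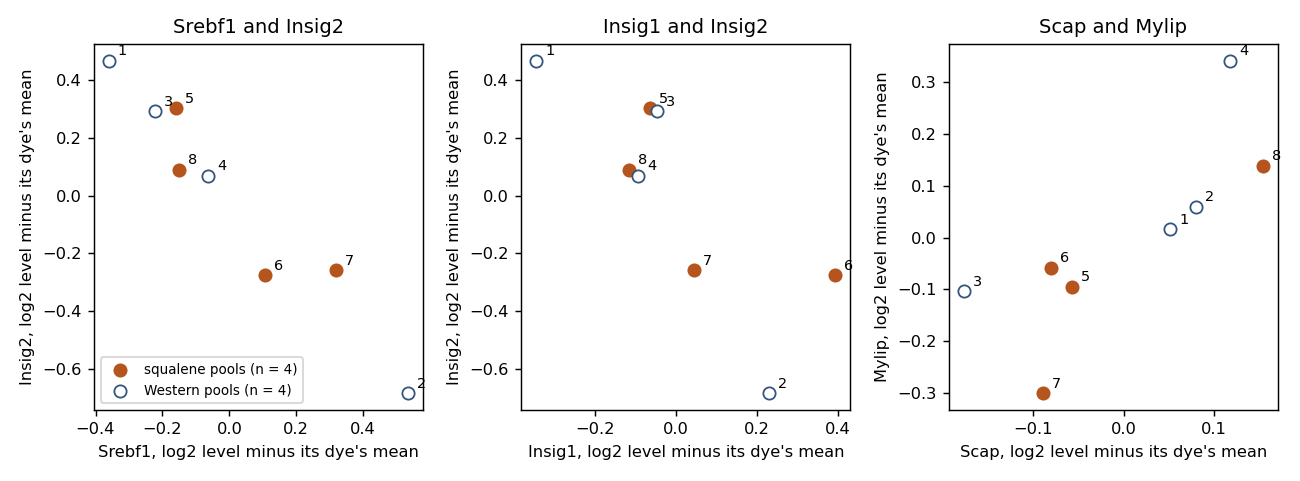
Log2 level minus the mean of its dye for 3 pairs of genes, with 1 point per pool, squalene filled and Western open, numbered by pool. Insig2 is lower where Srebf1 and Insig1 are higher, with pools 1 and 2, both Western, at the ends of the Srebf1 plot, and Mylip is higher where Scap is higher.

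Srebf1, Srebf2, Insig1, Insig2 and Stard4 were next set beside listed target genes of the SREBPs, with the brightest probe of each. This gave 98 relations over the 8 pools. None passed Benjamini-Hochberg adjustment (smallest adjusted p 0.34, exact permutation). Srebf1 had r above 0 with 17 of 19 lipogenic targets of SREBP-1c and a median r of 0.391, where 50.9% of 13311 genes had r above 0 and the median was 0.01. Insig2 had r below 0 with 16 of the same 19 and a median of -0.336, where 48.2% of genes had r above 0. These 2 counts are not separate, because the levels of Srebf1 and Insig2 had r = -0.969. Without pair 2 the Insig2 median was 0.03, so its sign rests on that pair. Thrsp, which promotes fatty acid synthesis, had r = 0.860 with Srebf1 and -0.865 with Insig2, and Acss2, which makes acetyl-CoA from acetate, had 0.864 and -0.926. Without the 2 pools farthest from the member's median, r was 0.580 and -0.763 for Thrsp, and 0.864 and -0.786 for Acss2. These 2 genes were named after their values were seen.

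Insig1 had r above 0 with 16 of 20 cholesterol synthesis genes (median 0.19, where 52.7% of genes were above 0), led by Fdft1, squalene synthase (r = 0.982, exact permutation p = 0.00694, adjusted p = 0.34), and by Lss, which closes the sterol ring (r = 0.890), both chosen after their values were seen. Without the 2 pools farthest from the median of Insig1, r was 0.942 for Fdft1 and 0.681 for Lss. Stard4 had r above 0 with 11 of the 20 (median 0.04). Srebf2, the gene of their activator, had r below 0 with 12 of the 20 (median -0.178), and that median was 0.05 without pair 1.

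By the naming rule, the 2 genes most like each member over the 8 pools, of 13310, were Rab43 (r = 0.992) and Gins4 (0.972) for Srebf1, Stx17 (0.977) and Necab2 (0.965) for Srebf2, and Ctso (0.978) and Ssbp1 (0.971) for Scap. They were Gigyf1 (0.981) and Wrnip1 (0.980) for Insig2, Niban2 (0.983) and Rec114 (0.972) for Mylip, and Parn (0.987) and Ciao1 (0.981) for Stard4. Nmt1 (0.994) was the closest to Insig1. With 8 points the best of so many genes is near 1 for each member, so these coefficients are a description.

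The other genes of the pathway, in 6 lists, had no gene past the adjustment. Of 27 genes for SREBP cleavage and turnover 25 were kept, 17 with a mean ratio above 0 and 8 below, and the median log2 ratio was 0.02, against 0.00 over all probes. Spring1, a cofactor of S1P, had 0.12, 0.06, 0.21 and 0.16 in pairs 1 to 4, Pgrmc1, a membrane protein that binds SCAP and INSIG1, had 0.16, 0.20, 0.12 and 0.05, and Erlin1, which restrains SREBP activation, had 0.16, 0.12, 0.27 and 0.02. Their means were 0.14 ± 0.06, 0.13 ± 0.06 and 0.14 ± 0.06 (SE). These 3 of the 25 were above 0 in all 4 pairs and 0 were below, against 3.7% and 2.98% of all probes. The naming rule takes such genes first in each list, so their shared sign follows from the choice. Syvn1, an E3 ligase of the endoplasmic reticulum, had the largest mean, 0.41 ± 0.19, but 1.41 came from pair 2 alone, and without that pair it was 0.12. Mbtps1, which encodes S1P, had a mean of 0.01 ± 0.06.

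Of the 20 cholesterol synthesis genes 11 had a mean ratio above 0 and 9 below, with a median log2 ratio of 0.01. Fdft1 had 0.21, 0.15, 0.06 and 0.06 in pairs 1 to 4 and a mean of 0.12 ± 0.06 (SE). Mvd, a decarboxylase of the mevalonate pathway, had 0.18, 0.68, 0.08 and -0.14 in pairs 1 to 4 and a mean of 0.20 ± 0.12, which was 0.05 without pair 2. Hmgcs1 stood at the other end with -0.39, 0.31, -0.90 and -0.62 in pairs 1 to 4 and a mean of -0.40 ± 0.20. Sc5d had a mean of -0.10 ± 0.05. Sqle, which uses squalene as its substrate and was named after its values were seen, had 0.72, 1.13, -0.13 and -0.74 in pairs 1 to 4, and its mean of 0.24 ± 0.30 was smaller than its SE.

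Of the 19 lipogenic targets 10 had a mean ratio above 0 and 9 below, with a median of 0.01. Elovl6, a fatty acid elongase, had 0.34 ± 0.09 (SE; unadjusted p = 0.011 in limma), but its ratio was -0.06 and -0.48 in pairs 1 and 4 and 0.87 and 1.01 in pairs 2 and 3, so the sign followed the dye orientation. Fads2, a desaturase, had 0.18 ± 0.06 (unadjusted p = 0.039 in limma), with 0.19, 0.22, 0.31 and -0.02 in pairs 1 to 4. Scd1, the main liver desaturase, was below 0 in all 4 pairs, with -0.06, -0.07, -0.07 and -0.87. It was the only 1 of the 19 to be so, against 2.98% of all probes. Fads1 had a mean of 0.23 ± 0.12 and Pnpla3 -0.12 ± 0.08. The unadjusted calls, 2 higher and 0 lower of 19, stand beside 1.16% and 1.28% of all probes.

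Of the 18 genes of LXR and its targets, which include the inducer of Mylip, 7 had a mean ratio above 0 and 11 below, with a median log2 ratio of -0.06, and 3 were lower at an unadjusted p under 0.05, against 1.28% of all probes. Nr0b2, a corepressor induced by bile acids, had -0.06, -0.27, -0.59 and -0.07 in pairs 1 to 4 (mean -0.24 ± 0.07, SE), and Pltp, the phospholipid transfer protein, had -0.20, -0.09, -0.39 and -0.19 (mean -0.22 ± 0.07). Lpl, the third, had 0.30, -0.53, -1.26 and -0.08 (SD 0.67, SE 0.14) and is also on the list of macrophage markers. Nr0b2 and Lpl were lowest in pairs 2 and 3, and that difference between orientations is not in their SE or p. Nr1h3, which encodes LXR alpha, had 0.03 ± 0.08, Abca1, the cholesterol exporter, -0.08 ± 0.06, and Apoc1 0.22 ± 0.14. Apoc1 had 1.27, -0.29, -0.62 and 0.51 in pairs 1 to 4 (SD 0.85), and its mean was 0.03 without pair 1.

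Of 26 genes for LDL receptor supply and removal 25 were kept, 10 with a mean ratio above 0 and 15 below, with a median log2 ratio of -0.02. Anxa2, which encodes the membrane-binding protein annexin A2, had -0.37 ± 0.09 (unadjusted p = 0.0103 in limma). Its ratios were 0.35, -0.74, -1.12 and 0.02 in pairs 1 to 4 (SD 0.68), so the sign followed the dye orientation. That spread is not in the SE or the p. The same 2 pairs were low as for the fibroblast markers. Vldlr had -0.22 ± 0.17, Sort1 -0.12 ± 0.08, Vps35l -0.07 ± 0.05 and Washc1 -0.07 ± 0.06. Of 25 genes for sterol transport and esterification 23 were kept, 12 above 0 and 11 below, with a median of 0.00. Soat1, which esterifies cholesterol, was below 0 in all 4 pairs (mean -0.12 ± 0.06, and -0.42 with the scanner software's processed signals), and Soat2, its liver counterpart, had -0.17 ± 0.09. Soat1 was the only 1 of the 23 below 0 in all 4 pairs, against 2.98% of all probes. Cyp27a1, which makes an oxysterol that LXR binds, had 0.10 ± 0.06, Lipa, the lysosomal cholesteryl ester hydrolase, -0.15 ± 0.13, and Gramd1a, a sterol carrier between membranes, -0.07 ± 0.06.

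**Figure D4:**
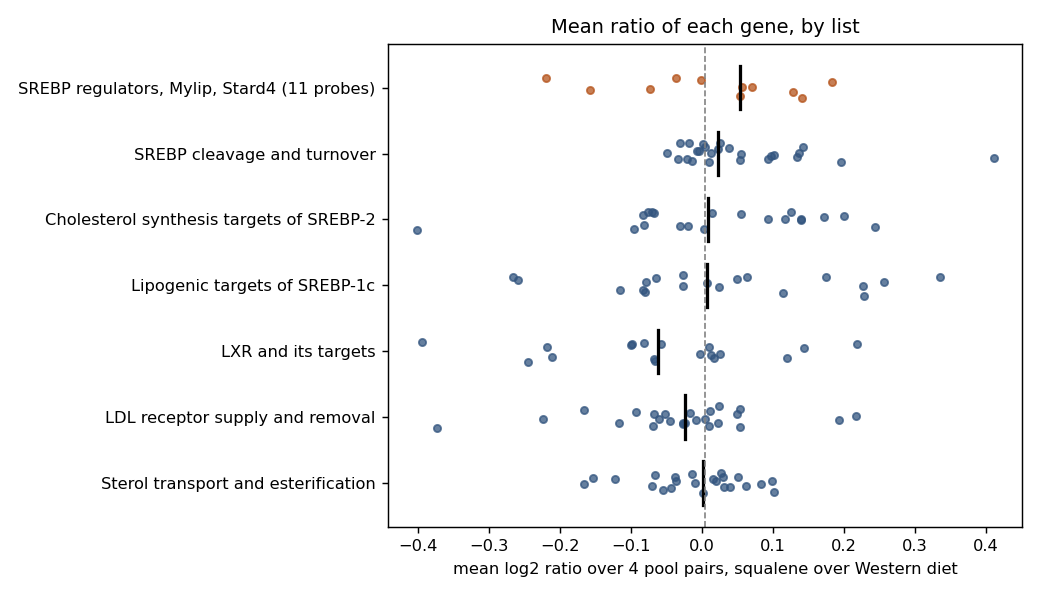
Mean log2 ratio of squalene over Western diet over 4 pool pairs (x axis) for the 11 member probes and for each kept gene of the 6 lists (rows, points spread vertically for sight), with a black bar at each median and a dashed line at the median of all probes. The medians of the 6 lists lie between -0.06 and 0.02, and Syvn1 is the point farthest to the right.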

How the data were processed

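Gene expression was measured in 8 liver RNA pools on 6 arrays. The members and gene lists were chosen with earlier results of these data known. The scanner files hold the intensity of each spot and of its surroundings in both channels, and an intensity corrected by the scanner software, as deposited and per the file headers (Agilent Feature Extraction 10.7.3.1). Further deposited columns hold that software's quality marks. The authors also deposited a value table, which matched log10 of squalene over Western of the uncorrected median signals within 0.001 for 99.93% to 99.94% of spots. Its columns had medians of 0.254 and 0.27 (pair 1), -0.217 and -0.257 (pair 2), -0.27 (pair 3) and 0.259 (pair 4), which shows no centring, and 2 cells in each pair 1 column, too large for a log ratio, were dropped here.

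An array had 62976 spots including 3671 controls. Per channel 46.6% to 51.9% of spots were well above background and none was saturated. The number of pools limits the precision. RefSeq (GRCm38.p6) gave 26762 of 55681 probes a symbol by accession.

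R 4.3.3, limma 3.58.1 and data.table (version 1.17.8) were used. The plan named mean signals, but medians were in the files and were used. They were corrected by normexp (offset 50) and loess within arrays with controls at weight 0, and arrays of the same pools were averaged. The filter asked for a signal well above background in at least 3 of 4 pairs in either diet, which kept 26854 probes and removed 28827. The model (lmFit, eBayes) had a constant for the effect of squalene and a term for dye orientation. It had a prior of 3.15 and 2 residual degrees of freedom. Its SEs and p-values rest on the spread left after the dye term, so a difference between orientations does not widen them. Levels are log2 intensity per channel after loess and Aquantile. On simulated data over 26854 probes, 49 of 50 probes changed 2-fold were called. The simulated noise was normal and independent, with only the spread left after the dye term. It held no difference between orientations and nothing shared by the probes of a pair. The count therefore checks the code and does not give the power in these data.

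Named are all members; per list up to 5 genes with 1 sign in all pairs, lowest unadjusted p first, and otherwise those of lowest p; the 2 genes most like each member over the pools; and Nr1h3 and Mbtps1 as known partners. Some genes that this rule selects are not reported here; they still count in the list totals. Alternatives covered background correction, normalisation, the value table, the filter, the dye term, the slide, probes per gene, the variance model, the pairing and each pair left out. The correlations with listed targets were added after the data were seen.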

Additional observations from a re-analysis of the deposited data

Results flagged for a closer look

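In each of 63 groups of 4 pool pairs the highest and lowest value were compared with the others by Dixon's test at the 95% level, which chance passes in about 1 of 20 groups, and 3 genes had a pair far from the rest. None was a member. Scd1 had a log2 ratio of squalene over Western of -0.87 in pair 4, where the other pairs ran from -0.07 to -0.06. Fads1 had -0.28 in pair 4, where the others ran from 0.33 to 0.45. Pnpla3 had 0.15 in pair 1, where the others ran from -0.22 to -0.16.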

How the results depend on the processing

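No member probe passed the adjustment under any of the 16 alternatives, nor did an orientation term of one where it was fitted. Over all probes the count past an adjusted p of 0.05 was 0, except 1 with median centring in place of loess and 8 with the authors' own table, and the count at an unadjusted p under 0.05 ran from 14, with a mean trend and robust prior, to 1447, with no filter, against 657. Without the pairing (no replicate block, the 8 pool levels as separate samples) 0 probes passed and 400 were under an unadjusted p of 0.05, with 1 member probe, that of Srebf2, in place of 3. With each pair left out, 468 to 1680 probes and 0 to 3 member probes stood there. The 3, without pair 2, were the Srebf1 probe and the brighter probes of Srebf2 and Insig2. The brighter Mylip probe stood there with no pair left out. The 3 member probes under 0.05 in the main fit, of Srebf2, Mylip and Stard4, kept their sign throughout. With processed signals the dimmer Stard4 probe had 0.31, the dimmer Mylip probe 0.15, Spring1 0.30, Soat1 -0.42 and Pnpla3 -0.35. With a pair left out, means also moved by over 1.5 times for Insig1 (0.053 to 0.20), the dimmer Srebf2 probe (0.013 to 0.096), the brighter Stard4 probe (0.061 to 0.22), Syvn1 (0.12 to 0.70), Hmgcs1 (-0.70 to -0.098), Mvd (0.052 to 0.35), Scd1 (-0.47 to -0.063), Fads1 (0.054 to 0.40), Pnpla3 (-0.21 to -0.023), Pltp (-0.29 to -0.14), Lpl (-0.58 to -0.21), Apoc1 (0.030 to 0.41), Abca1 (-0.12 to -0.038), Sort1 (-0.19 to -0.040), Vps35l (-0.092 to -0.045), Washc1 (-0.10 to -0.030), Soat2 (-0.27 to -0.063), Cyp27a1 (0.059 to 0.14) and Gramd1a (-0.10 to -0.031). The dimmer Insig2 probe, near 0, had 0.00918 with processed signals, 0.025 with median centring, 0.024 with the values of the authors and 0.020 on the second slide only. Leaving out each pair turned the sign of Srebf1 (-0.19 to 0.30), Scap (-0.098 to 0.025), the brighter (-0.31 to 0.17) and dimmer (-0.21 to 0.21) Insig2 probe, Mbtps1 (-0.023 to 0.049), Nr1h3 (-0.053 to 0.10), Vldlr (-0.46 to 0.018) and Lipa (-0.34 to 0.032), and that of the median r with listed genes for Srebf2 (-0.425 to 0.053), Insig2 (-0.466 to 0.034) and Stard4 (-0.122 to 0.247). The Stard4 median r was -0.063 without removing the dye means. The median of the LDL receptor list was -0.011 with processed signals, -0.0050 with median centring, -0.00361 with the authors' table and -0.038 to -0.010 with a pair left out, and the medians of the cholesterol synthesis (-0.054 to 0.096), lipogenic (-0.070 to 0.039) and sterol transport (-0.011 to 0.031) lists changed sign with the pair left out. With 3 pairs, 36 arrangements allow no p under 0.0278, and 0 of the 21 correlations among members passed with a pair left out, in place of 1. The cause of these differences was not tested.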

Other observations

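Because Insig2 is lowered by insulin in mouse liver and Srebf1 is induced by it, 5 genes that insulin represses, chosen after the values were seen, were set beside both over the 8 pools. None of the 10 relations passed Benjamini-Hochberg adjustment (smallest adjusted p 0.333, exact permutation within dye). Insig2 had r = 0.696 with Pdk4 (rho = 0.667), 0.556 with Irs2 (rho = 0.548) and 0.523 with Igfbp1 (rho = 0.643), but -0.383 with Pck1 and 0.07 with G6pc. Srebf1 had -0.598 with Pdk4, -0.574 with Irs2, and -0.474 with Igfbp1, but 0.453 with Pck1 and -0.187 with G6pc. Pdk4 itself had log2 ratios of squalene over Western of 0.33, -0.85, -1.79 and 0.03 in pairs 1 to 4 (unadjusted p = 0.016 in limma, adjusted p = 0.9999). It was low in pairs 2 and 3, so the sign followed the dye orientation, a spread that this p leaves out.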
